A study of Mus musculus with 4 samples.

Results

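Small leucine-rich proteoglycans are secreted matrix proteins whose core is a run of leucine-rich repeats. The 9 genes described here, Dcn, Bgn, Aspn, Lum, Fmod, Prelp, Omd, Ogn and Podn, were chosen by name as members of this family, and were 9 of 30406 genes listed in all 4 libraries. Each gene was followed in each stromal cell type of each library, with macrophages as the background. Single-cell 3′ libraries were made from mouse hindlimb vessels, namely both popliteal lymphatic vessels (PLV) and the superficial saphenous vein (SSV), and each library held cells of 3 pooled mice on a C57BL6 background. The tdT1 and tdT2 libraries came from Cspg4-Cre;tdTomato mice and were sorted for tdTomato+ cells. That reporter marks cells that have at some time expressed Cspg4, which encodes NG2, or that descend from such cells. The WT library came from wild-type mice and the TNF-Tg library from mice with a TNF transgene that develop chronic inflammatory-erosive arthritis. Both of these were from mice of 9 months and were sorted by scatter alone, and neither carried the reporter. WT and TNF-Tg had 1 library each, so genotype cannot be told apart from library, and no test was made of their levels against each other.

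Members of the family bind collagen fibrils and influence how wide the fibrils grow and how they pack. Several also bind growth factors of the TGF-β family or innate immune receptors once they are released from the matrix. In vessel walls and in the connective tissue around them these proteins are made mainly by fibroblast-like stromal cells and by mural cells. Dcn (decorin), Bgn (biglycan) and Aspn (asporin) form class I of the family. Lum (lumican), Fmod (fibromodulin), Prelp and Omd (osteomodulin) belong to class II, Ogn (osteoglycin) to class III, and Podn (podocan) to a later described class.

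The libraries held 454 to 5488 cells and 2357031 to 68773605 UMIs, and the median per cell was 4932.5 to 12660 UMIs. In tdT1, 34.3% of cells had over 10% mitochondrial UMIs. Stromal cells were split by 8 genes per side into the types that the study calls lymphatic muscle cells (LMC) and vascular smooth muscle cells (VSMC), and no member was among the gate genes. There were 735, 88, 1420 and 501 LMC-type cells and 190, 114, 545 and 473 VSMC-type cells in tdT1, tdT2, WT and TNF-Tg. The gate was set on these cells, and 4.22% to 9.27% of the stromal cells of a library lay near a cut. The muscle names were not borne out by the contractile genes Acta2, Myh11, Tagln and Cnn1. Together with Des they summed to 9.86 to 41.8 UMIs per 1000000 (CPM) in LMC-type cells and to 2.80 to 17.8 CPM in VSMC-type cells. Des gave most of the LMC-type sums, with 36.7 CPM in WT against 1.40 CPM in WT VSMC-type cells. Cnn1 had no UMI in the VSMC-type cells of the 4 libraries. The study based the muscle names on other genes, among them Cald1, Tpm1 and Pdgfrb, with αSMA protein seen in the vessels. Other support in the study was Cspg4-Cre;tdTomato signal, dim in PLV and bright in SSV, with matching low and high sorted cells. Pdgfrb-CreER reporter signal overlapped αSMA in PLV. Dcn, a member here, was among the fibroblast genes that the study found high in both types. To tell VSMC from LMC it used Cst3, Mgp and Bgn as higher in VSMC, and Ackr3 and Vegfd as higher in LMC. Bgn, a member here, is thus among the genes behind the VSMC name, and Mgp is also a gate gene. The study proposes low read depth as a possible reason for the low Acta2. It also reports limited tdTomato in these vessels of Acta2-Cre and Acta2-CreER reporter mice. It does not fully exclude that the cells are myofibroblasts from the tissue around the vessels. The stromal genes of the gate summed to 11550 CPM or more in both types. The types are therefore called LMC-type and VSMC-type stroma by their gate.

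All levels below are CPM of the UMIs summed over the cells of a type in a library. A UMI marks 1 captured 3′ end and was not divided by gene length. Dcn was the bulk of the family in both types, with 81.1% to 88.2% of the family's UMIs in the 8 sums. The 9 genes together were 1.32% to 2.31% of all UMIs in LMC-type cells and 1.54% to 2.85% in VSMC-type cells. The members fell into 3 that were higher in VSMC-type cells (Bgn, Lum and Podn), 3 that were higher in LMC-type cells (Aspn, Ogn and Omd), and 2 that did not pass the test (Dcn and Prelp). Fmod was too low to test. The test was edgeR's quasi-likelihood fit on the 8 sums with the library as a block, and a call needs an adjusted p under 0.01. By the same rule 14.1% of the 10973 genes tested were called, 7.52% as higher in VSMC-type cells and 6.53% as higher in LMC-type cells. The median log2 ratio of VSMC-type over LMC-type was 0.07 over the 8 members tested and 0.02 over all genes tested. Since the types were gated on other genes of the same cells, these p-values describe how far the types stand apart across the 4 libraries, and the libraries are the only replicates.

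**Figure D1:**
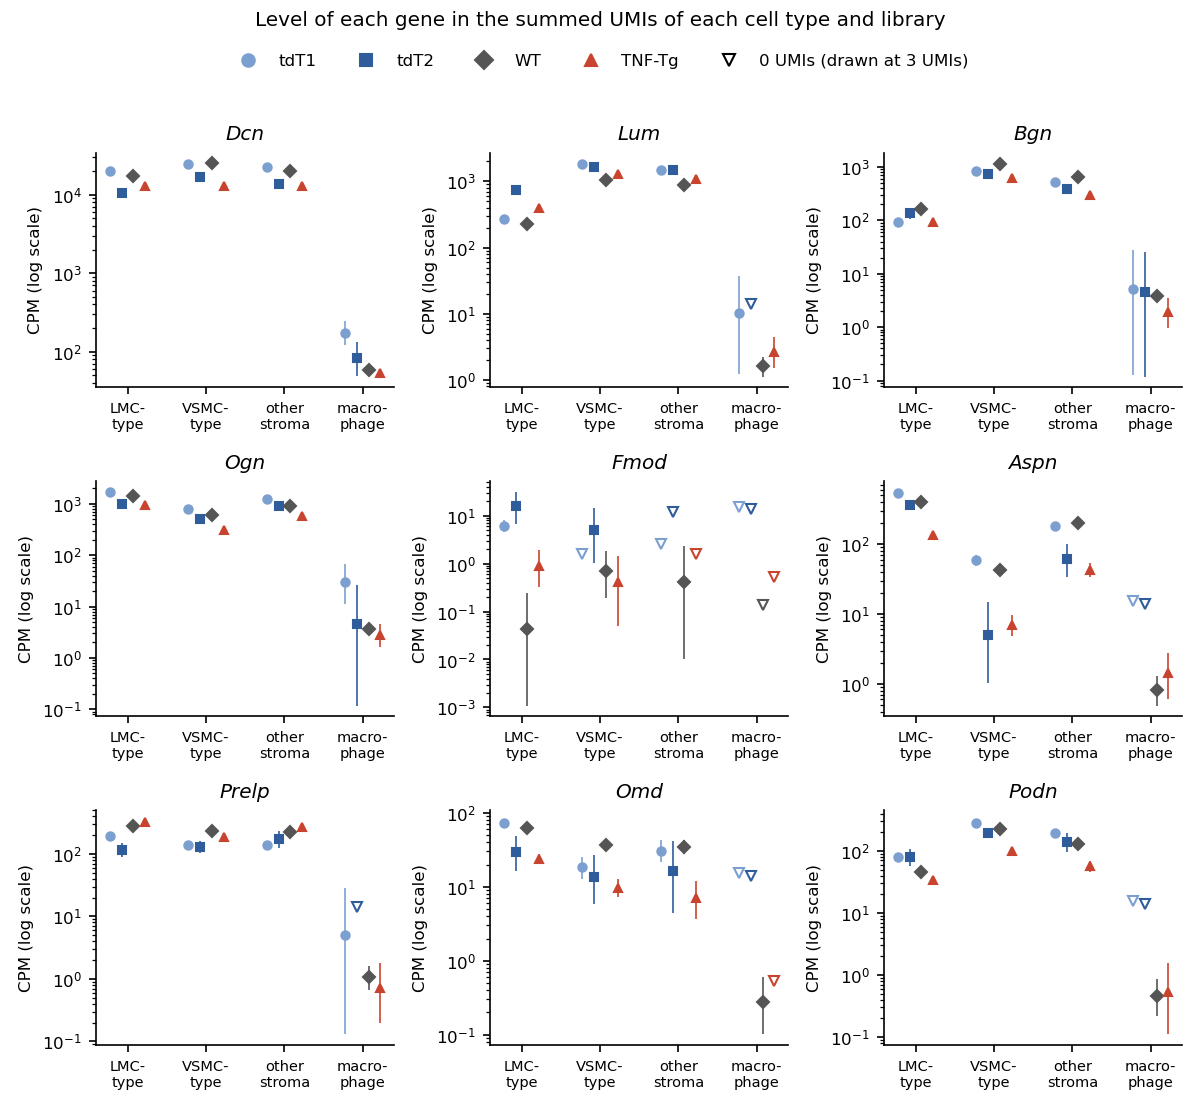
Level of each small leucine-rich proteoglycan gene in CPM (log axis) in LMC-type, VSMC-type and other stroma and in macrophages, with 1 point per library (tdT1, tdT2, WT, TNF-Tg), bars for exact 95% counting intervals and open triangles at the 3-UMI limit for 0 UMIs. Dcn lies above the other 8 genes in both stromal types, and Bgn and Aspn show the widest gaps between the types in opposite directions.

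Bgn, which encodes biglycan, a core protein that usually carries a pair of glycosaminoglycan chains, had 94.4, 136, 166 and 93.2 CPM in LMC-type cells of tdT1, tdT2, WT and TNF-Tg. In VSMC-type cells of the same libraries it had 826, 747, 1148 and 612 CPM. Every VSMC-type value lay above every LMC-type value. The share of all genes tested whose groups stand apart in this way is not given, here or for the members below. The fitted log2 ratio of Bgn was 2.88 ± 0.15 (SE, 4 libraries), a 7.34-fold difference with an adjusted p of 2.4e-08 by edgeR. Of the 10973 genes tested, Bgn ranked 136 from the VSMC side. Since the study used Bgn among the genes that set its VSMC cluster apart, this direction was already reported.

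Aspn, which encodes asporin, a class I member that carries a stretch of aspartate and no glycosaminoglycan chain, went the other way. It had 537, 361, 402 and 134 CPM in LMC-type cells and 58.1, 5.05, 42.2 and 6.89 CPM in VSMC-type cells, and the groups did not overlap. The value of 5.05 CPM in tdT2 rested on 3 UMIs. The fitted log2 ratio was -3.63 ± 0.26, which is 12.4-fold higher in LMC-type cells, with an adjusted p of 3.0e-07 by edgeR, and Aspn ranked 60 from the LMC side. Bgn UMIs per Aspn UMI were 0.176, 0.377, 0.413 and 0.696 in LMC-type cells of tdT1, tdT2, WT and TNF-Tg, and 14.2, 148, 27.2 and 88.8 in VSMC-type cells. Stroma that the score put in neither type lay between, at 2.92, 6.33, 3.28 and 6.94.

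The promoter windows of Bgn, of Aspn and of the 2 members that follow Aspn on its chromosome are shown, since these genes differ most between the types or lie together and share a direction. Omd and Ogn were added after their values were seen. Each window is the RefSeq GRCm38.p6 sequence from 250 bases before to 50 bases after the transcript start, on the gene's strand, for Bgn at chrX:73483351-73483650, Aspn at chr13:49544193-49544492, Omd at chr13:49582212-49582511 and Ogn at chr13:49607765-49608064, all on the plus strand. For Ogn the RefSeq start lies before the GENCODE gene start given below, so that this window's start is in no GENCODE transcript of the gene. Capitals mark matches on either strand to the TATA box (TATAAA), the CCAAT box (CCAAT), the GC box (GGGCGG) or the TEAD motif (GGAATG).
Bgn: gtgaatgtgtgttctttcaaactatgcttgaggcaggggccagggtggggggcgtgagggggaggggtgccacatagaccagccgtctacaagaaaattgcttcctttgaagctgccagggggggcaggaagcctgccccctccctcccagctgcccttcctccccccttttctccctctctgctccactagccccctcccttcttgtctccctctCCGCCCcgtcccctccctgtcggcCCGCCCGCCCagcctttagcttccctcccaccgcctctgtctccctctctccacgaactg
Aspn: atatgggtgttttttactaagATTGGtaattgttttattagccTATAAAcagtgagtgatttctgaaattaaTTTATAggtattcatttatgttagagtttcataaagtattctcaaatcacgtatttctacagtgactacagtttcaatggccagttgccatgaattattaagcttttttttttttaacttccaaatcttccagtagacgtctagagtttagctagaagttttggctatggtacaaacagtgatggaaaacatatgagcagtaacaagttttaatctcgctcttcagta
Omd: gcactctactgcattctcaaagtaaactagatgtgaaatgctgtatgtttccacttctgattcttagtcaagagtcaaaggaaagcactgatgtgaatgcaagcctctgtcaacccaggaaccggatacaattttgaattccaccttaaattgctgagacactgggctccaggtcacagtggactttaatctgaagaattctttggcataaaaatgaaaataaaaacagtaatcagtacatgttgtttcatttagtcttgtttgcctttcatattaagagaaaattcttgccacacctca
Ogn: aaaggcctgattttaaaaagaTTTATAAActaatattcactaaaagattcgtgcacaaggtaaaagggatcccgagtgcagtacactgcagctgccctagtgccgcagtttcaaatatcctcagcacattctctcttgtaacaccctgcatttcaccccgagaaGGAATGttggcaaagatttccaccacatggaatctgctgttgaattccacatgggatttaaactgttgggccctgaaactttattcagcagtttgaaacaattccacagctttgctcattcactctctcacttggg

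The Bgn window was 63.7% G or C, above 79.1% of 32851 RefSeq promoter windows, and held 3 GC boxes, of which 2 overlap. The Aspn window was 31.0% G or C, with only 1.28% of windows below it, and held 1 CCAAT box at -229 and 2 TATA boxes at -207 and -178 from the start. The Omd window was 37.7% G or C and matched none of the 4 motifs. The Ogn window was 42.3% G or C, with 2 overlapping TATA boxes and 1 TEAD motif. Among all windows of this length 13.6% held the TATA box, 37.4% the CCAAT box, 35.7% the GC box and 14.7% the TEAD motif, and a match is a description of the letters only. Dcn and Lum were not among the 7 of 9 members with a promoter window.

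Ogn and Omd lie beside Aspn and were also higher in LMC-type cells. In GENCODE vM21 (GRCm38) Aspn is at chr13:49544443-49567565, Omd at chr13:49582462-49592822 and Ogn at chr13:49608046-49624501, with gaps of 14896 and 15223 bases. All 3 lie on the plus strand within Cenpp, which runs on the opposite strand. Ogn, which encodes osteoglycin, also named mimecan, had 1674, 1009.7, 1428 and 942 CPM in LMC-type cells and 793, 505, 607 and 304 CPM in VSMC-type cells, with no overlap. Its fitted log2 ratio was -1.16 ± 0.13 (2.24-fold higher in LMC-type cells, adjusted p = 2.2e-05 by edgeR).

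Omd, which encodes osteomodulin, a keratan sulfate proteoglycan known from bone, was far lower. It had 71.8, 29.6, 62.3 and 24.1 CPM in LMC-type cells against 18.3, 13.5, 36.6 and 9.72 CPM in VSMC-type cells. Within each library the LMC-type value was the higher, but the ranges over libraries overlapped. The fitted log2 ratio was -1.15 ± 0.19 (adjusted p = 4.9e-04 by edgeR). In tdT2, with the fewest cells, the interval of the log2 ratio from counting error alone was -2.58 to 0.19 and included 0. Ecm2, the gene for a related matrix protein next to Aspn on the same chromosome, did not share this direction (log2 ratio 0.32 ± 0.13, adjusted p = 0.091 by edgeR).

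Lum, which encodes lumican, a keratan sulfate proteoglycan of collagen-rich tissue, had 267, 742, 230.5 and 389 CPM in LMC-type cells and 1813, 1619, 1057 and 1314 CPM in VSMC-type cells. The groups did not overlap, and the fitted log2 ratio was 2.05 ± 0.22 (4.15-fold higher in VSMC-type cells, adjusted p = 1.1e-05 by edgeR). The ratio varied more between libraries than that of Bgn, from 1.13 in tdT2 to 2.76 in tdT1 on the log2 scale. Podn, which encodes podocan, had 79.8, 78.9, 46.4 and 34.1 CPM in LMC-type cells and 279.6, 194, 229 and 99.5 CPM in VSMC-type cells, again with no overlap. Its fitted log2 ratio was 1.89 ± 0.16 (3.70-fold, adjusted p = 1.5e-06 by edgeR). The Podn gene (chr4:108014791-108096445, minus strand) overlaps Scp2 on its own strand, and how reads in the shared stretch were counted was not examined.

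Dcn, which encodes decorin, a regulator of fibril growth with a single glycosaminoglycan chain, lies next to Lum (chr10:97479609-97518143 and chr10:97565128-97572703, plus strand, 46984 bases apart). It had 20155, 10669, 17565 and 13135 CPM in LMC-type cells and 24511, 16966, 25155 and 12852 CPM in VSMC-type cells. The ranges overlapped. The fitted log2 ratio was 0.44 ± 0.14, with a 95% interval of 0.13 to 0.74, and missed the threshold (adjusted p = 0.041 by edgeR), while DESeq2 called it (adjusted p = 0.0055). It was higher in VSMC-type cells in 3 of 4 libraries, the direction of Lum. Prelp, which encodes a member with a basic end that binds heparin, had 193, 116, 283 and 324 CPM in LMC-type cells and 141, 129.6, 236 and 188 CPM in VSMC-type cells. The groups overlapped, and its log2 ratio of -0.30 ± 0.14 had an interval of -0.61 to 0.01 (adjusted p = 0.157 by edgeR). A miss of the threshold does not show that these genes are alike in the types.

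Fmod, which encodes fibromodulin, a member abundant in tendon and cartilage, had 51, 8, 1 and 6 UMIs in LMC-type cells of tdT1, tdT2, WT and TNF-Tg and 0, 3, 4 and 2 UMIs in VSMC-type cells. The 51 UMIs of tdT1 came from 3 cells and the 8 UMIs of tdT2 from 1 cell. It did not pass the filter on low counts, and no ratio is given. It lies 115839 bases from Prelp on chromosome 1.

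The 6 calls rest on comparing the types within each library, whose cells came from the same pooled mice. Without the library block, Bgn alone passed (adjusted p = 4.9e-04 by edgeR). Lum then had an adjusted p of 0.014, Podn 0.012, Aspn 0.013, Ogn 0.068 and Omd 0.23 by the same test, with the directions kept. Leaving out any 1 library, tdT1 with its high mitochondrial share included, left all 6 called.

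**Figure D2:**
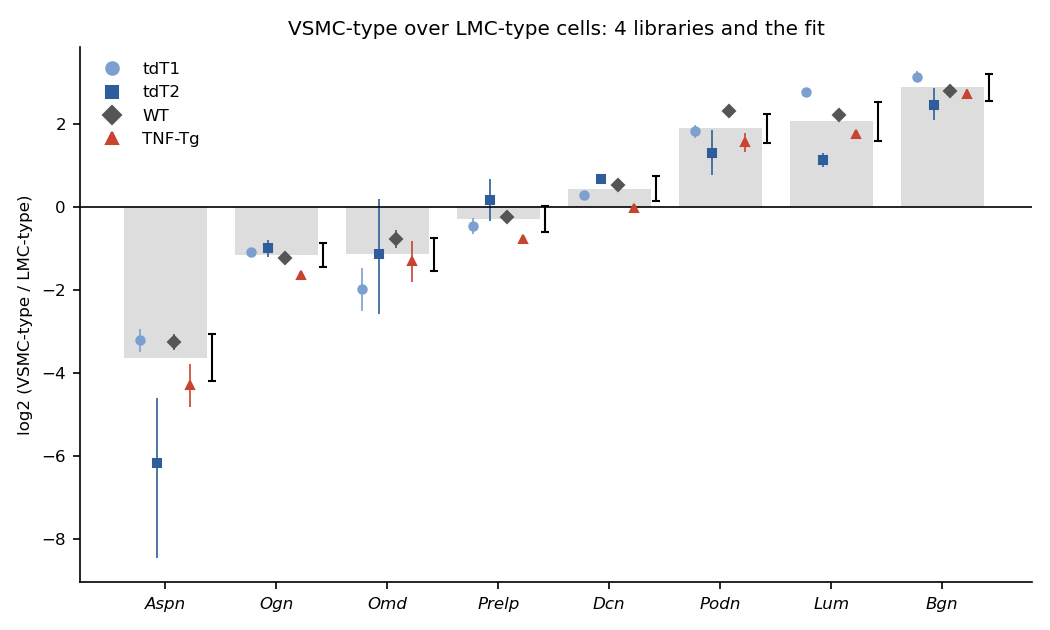
Log2 ratio of VSMC-type over LMC-type level for each member, with 1 point per library (bars, exact 95% counting intervals) and the edgeR estimate in black with its 95% interval. Bgn, Lum and Podn lie above 0 and Aspn, Ogn and Omd below 0 in every library, while Dcn and Prelp have libraries on both sides of 0.

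To ask which member separates single cells, each cell was thinned to 3000 UMIs and the area under the curve was taken. It is the chance that a VSMC-type cell has more UMIs of the gene than an LMC-type cell, with a tie counted as 0.5. An area of 0.5 is no separation, and cells that both lack a gene tie, which draws sparse members toward 0.5. Stroma that the score put in neither type was left out. Bgn had areas of 0.880, 0.809, 0.884 and 0.819 in tdT1, tdT2, WT and TNF-Tg, a mean of 0.848 ± 0.040 (SD, n = 4 libraries). It stood farthest from 0.5 in tdT1, tdT2 and WT, while in TNF-Tg Lum was just ahead of it with 0.823. Lum had a mean area of 0.804 ± 0.063, with 0.879, 0.730 and 0.785 in tdT1, tdT2 and WT. The order of Bgn and Lum was thus not the same in every library, and 4 libraries do not settle it. The lead of Bgn over Aspn also rests on the depth. Without thinning their mean areas were 0.838 and 0.172. Aspn then stood farther from 0.5 than Bgn in tdT2 and WT, and Bgn farther than Aspn in tdT1 and TNF-Tg.

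Of the members higher in LMC-type cells, Aspn separated best by the mean at this depth, with areas of 0.224, 0.239, 0.238 and 0.357 and a mean of 0.264 ± 0.062. Ogn followed with a mean of 0.295 ± 0.055. It lay nearer 0.5 than Aspn in tdT1, tdT2 and WT, with 0.293, 0.374 and 0.252, but was ahead of Aspn in TNF-Tg with 0.263. At 1500 UMIs the means of Aspn and Ogn were 0.337 and 0.338, and without thinning 0.172 and 0.248. The order of the means was kept, but the size of the gap rests on the depth. Podn had a mean of 0.642 ± 0.058 beside its 3.70-fold difference in level, and at this depth was seen in 10.9% to 21.7% of LMC-type and 26.9% to 59.3% of VSMC-type cells of a library. Dcn had areas of 0.672, 0.791 and 0.735 in tdT1, tdT2 and WT but 0.449 in TNF-Tg. Prelp, Omd and Fmod had means of 0.454, 0.472 and 0.499.

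**Figure D3:**
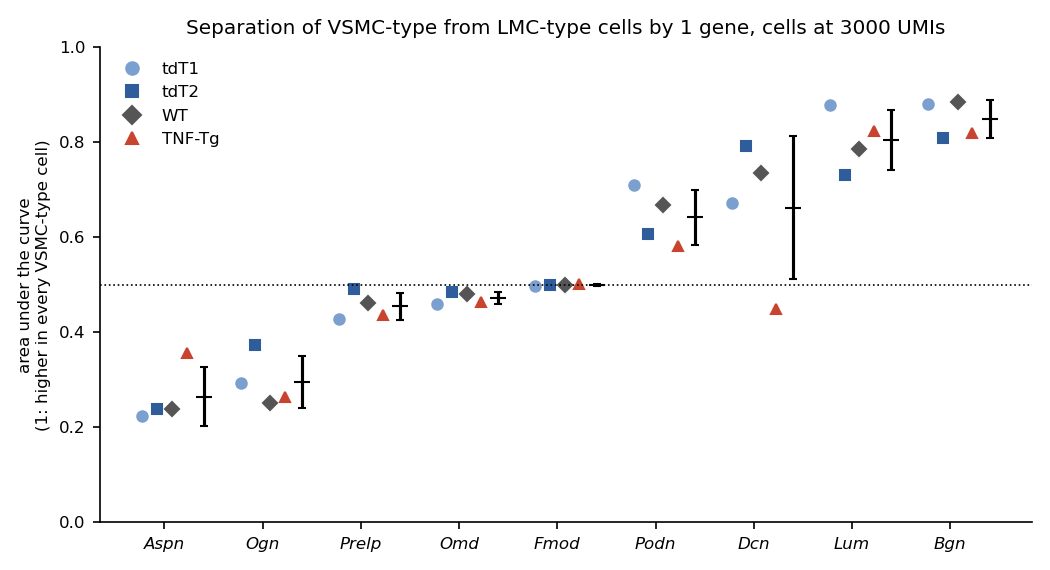
Area under the curve for telling VSMC-type from LMC-type cells by the UMIs of 1 member at 3000 UMIs per cell, with 1 point per library and the mean over the 4 libraries in black with its SD. Bgn (mean 0.848) and Lum (mean 0.804) lie farthest above 0.5 and Aspn (mean 0.264) and Ogn (mean 0.295) farthest below.

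At 3000 UMIs, Bgn was seen in 13.9%, 15.9%, 24.1% and 14.1% of LMC-type cells of tdT1, tdT2, WT and TNF-Tg, and in 85.7%, 74.4%, 88.8% and 74.3% of VSMC-type cells. Macrophages, taken as the background, showed it in 1.07% of WT and 0.505% of TNF-Tg cells, below the shares in both stromal types of these libraries. The tdT libraries had few macrophages, with Bgn in 1 of 20 in tdT1 (exact 95% interval 0.127% to 24.9%), which does not separate them from the LMC-type share there, and in 0 of 37 in tdT2, which allows up to 8.11%. Without thinning, Bgn was seen in 21.0% to 43.2% of LMC-type and 82.1% to 93.2% of VSMC-type cells and in 4.24% and 1.65% of WT and TNF-Tg macrophages. Median depths in WT were 16136 UMIs for LMC-type, 10920 for VSMC-type cells and 12375 for macrophages, and in TNF-Tg 12284, 9968 and 12990.

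Aspn was seen at 3000 UMIs in 63.4%, 52.2%, 60.8% and 29.8% of LMC-type cells and in 10.7%, 0%, 9.89% and 1.22% of VSMC-type cells. The 0% was 0 of 86 tdT2 cells, which allows a share of up to 3.49%. In macrophages it was seen in 0.417% of WT cells and in 0 of 396 TNF-Tg cells, which allows up to 0.758%, so the TNF-Tg VSMC-type share was near the background. Without thinning the shares were 57.7% to 89.5% in LMC-type and 2.63% to 18.9% in VSMC-type cells, with 1.02% and 0.709% in WT and TNF-Tg macrophages. Thinning left out 5 to 216 LMC-type and 28 to 70 VSMC-type cells of a library for too few UMIs. Intervals and limits here cover counting error only.

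Bgn and Aspn were also read as a pair in the same thinned cells. Aspn without Bgn was the state of 53.8%, 46.4%, 45.8% and 26.4% of LMC-type cells, and Bgn without Aspn that of 77.1%, 74.4%, 80.4% and 73.3% of VSMC-type cells. Many LMC-type cells held neither at this depth, from 30.1% in WT to 59.5% in TNF-Tg. The TNF-Tg share of Aspn without Bgn in LMC-type cells was the lowest of the 4 libraries.

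**Figure D4:**
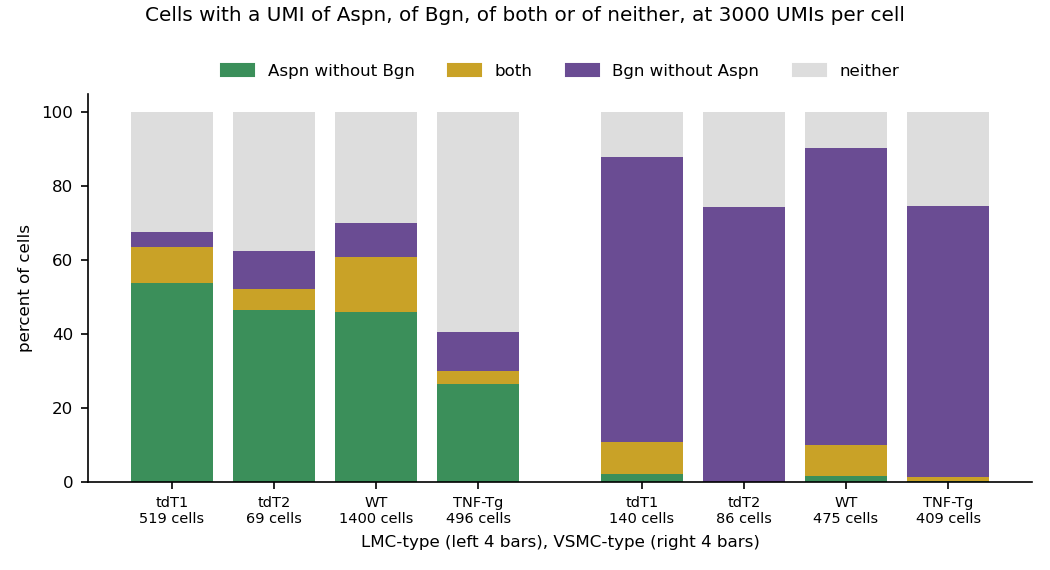
Share of cells (percent, at 3000 UMIs per cell) with a UMI of Aspn only, Bgn only, both or neither, in LMC-type and VSMC-type stroma of each library. Bgn only is the most common state of VSMC-type cells (73.3% to 80.4%), and neither is the most common state of TNF-Tg LMC-type cells (59.5%).

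Within a type, UMIs of some members went together across single cells. In LMC-type cells, Spearman's rho of Dcn with Ogn was 0.18 to 0.54 over the 4 libraries. In VSMC-type cells, rho of Dcn with Lum was 0.49 in TNF-Tg and between -0.10 and 0.17 in the other libraries, and that of Dcn with Ogn was 0.40 in TNF-Tg and between -0.01 and 0.13 in the others. The points are thinned cells of 1 library and share its free RNA, so these are descriptions.

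The WT and TNF-Tg libraries were compared within each type by the ratio of CPM. Its exact interval covers counting error only. The 2 tdT libraries stand beside them as libraries without the transgene. They differ from WT in the mice and the sort, and tdT1 also in the sequencer. The study used male mice alone for WT and TNF-Tg and does not say so for the reporter mice. Distance of a tdT library from WT thus mixes these differences with the spread between libraries. In TNF-Tg LMC-type cells Aspn and Omd were at least 2-fold lower than in WT, 2 of 8 members with enough UMIs, where 3.91% of 10912 genes were. In VSMC-type cells Aspn, Omd and Podn were, 3 of 8, where 9.5% of 9401 genes were. No member was at least 2-fold higher, against 3.15% and 3.29% of genes. The median log2 ratio over the members was -0.52 in LMC-type and -0.98 in VSMC-type cells, where over all genes it was -0.02 and -0.17. Another scaling (TMM) would raise the LMC-type ratios by 0.02 and the VSMC-type ratios by 0.16, which turns no member's direction.

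In LMC-type cells Aspn stood at 402 CPM for WT against 134 CPM for TNF-Tg, a log2 ratio of -1.59 (95% interval -1.69 to -1.49). Both tdT libraries lay near WT, with log2 ratios over WT of 0.42 and -0.15. In VSMC-type cells the ratio was -2.62 (-3.18 to -2.09), but tdT2 was as far below WT, at -3.06. The TNF-Tg value was therefore outside the range of the other 3 libraries in LMC-type cells and inside it in VSMC-type cells.

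Omd, beside Aspn on the chromosome, had log2 ratios of -1.37 (-1.61 to -1.14) in LMC-type and -1.91 (-2.40 to -1.45) in VSMC-type cells, and TNF-Tg was the lowest library in both. Here tdT2 too was below WT, by -1.07 and -1.44. In VSMC-type cells tdT1 was also below WT, with 18.3 against 36.6 CPM, so WT was the highest library there. Ogn, the next gene, was lower in TNF-Tg by a log2 ratio of -0.60 (-0.64 to -0.56) in LMC-type cells and of -0.997 (-1.09 to -0.91), just inside 2-fold, in VSMC-type cells, and was again lowest in TNF-Tg in both types. In LMC-type cells Ogn in tdT2 had 1009.7 CPM (924 to 1101), and this counting interval overlapped that of TNF-Tg, at 942 CPM (919 to 966). In VSMC-type cells tdT1 and tdT2 had ratios of 0.38 and -0.27 for Ogn.

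Bgn was lower in TNF-Tg than in WT in both types, with log2 ratios of -0.83 (-0.96 to -0.71) and -0.91 (-0.97 to -0.85). In LMC-type cells tdT1 was as low as TNF-Tg, with 94.4 against 93.2 CPM, so this ratio does not set TNF-Tg apart from the other libraries. Podn had ratios of -0.44 (-0.66 to -0.24) and -1.20 (-1.36 to -1.05), and the tdT libraries had ratios of 0.78 and 0.77 in LMC-type and 0.29 and -0.24 in VSMC-type cells. Dcn lay outside the other libraries in VSMC-type cells, where 12852 CPM in TNF-Tg compared with 16966 to 25155 CPM in the others (log2 ratio over WT -0.97, -0.98 to -0.96). In LMC-type cells its ratio of -0.42 lay within the tdT range of -0.72 to 0.20.

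Lum was the member that was higher in TNF-Tg in both types, with log2 ratios over WT of 0.76 (0.69 to 0.82) and 0.31 (0.26 to 0.37). WT had the lowest Lum of the 4 libraries in both types, and tdT2 had a ratio of 1.69 in LMC-type cells and tdT1 one of 0.78 in VSMC-type cells. TNF-Tg thus lay within the range of the other libraries. Prelp was higher in TNF-Tg in LMC-type cells (0.20, 0.13 to 0.27) and lower in VSMC-type cells (-0.33, -0.45 to -0.21). Over the 8 members TNF-Tg was below all 3 other libraries for 5 in LMC-type cells (Bgn, Ogn, Aspn, Omd and Podn) and for 5 in VSMC-type cells (Dcn, Bgn, Ogn, Omd and Podn). These positions go by CPM alone. In LMC-type cells the TNF-Tg counting interval overlapped that of tdT1 for Bgn and that of tdT2 for Ogn and Omd. In VSMC-type cells it overlapped those of tdT1 and of tdT2 for Omd. Over all genes with enough UMIs TNF-Tg was below the other 3 for 28.3% in LMC-type and 40.9% in VSMC-type cells. Prelp in LMC-type cells was the reverse, with TNF-Tg above the other 3, as it was for 27.4% of genes. In VSMC-type cells no member was above the other 3, where 24.0% of genes were. In TNF-Tg LMC-type cells the erythroid genes summed to 639.8 CPM, against 9.51 CPM in WT, 99.8 CPM in tdT1 and 27.6 CPM in tdT2. In LMC-type cells the 5 tendon genes had 35.0 CPM in tdT1 and 0 in tdT2. From WT to TNF-Tg they went from 39.8 to 11.7 CPM (Tnmd from 38.2 to 11.5). The 8 LMC gate genes went from 8316 to 5907 CPM and the 8 stromal gate genes from 25254 to 18858 CPM. The part of each of these in the members' ratios was not tested.

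**Figure D5:**
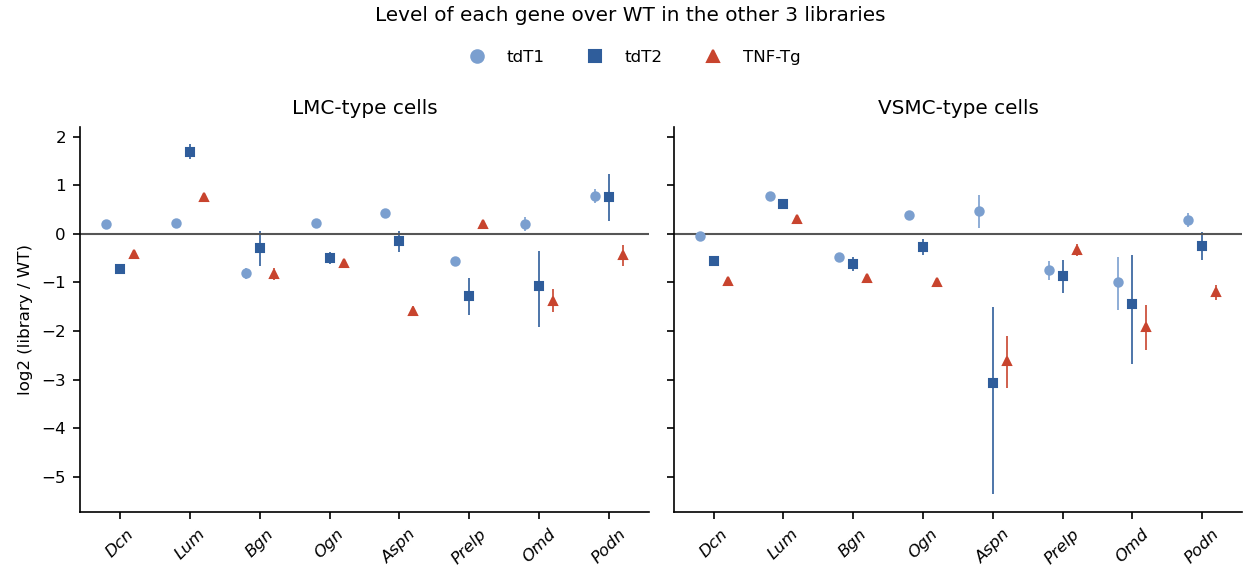
Log2 ratio of each library's level over WT for each member in LMC-type and VSMC-type stroma, with exact 95% intervals for counting error. Aspn in LMC-type cells (TNF-Tg -1.59, tdT1 0.42, tdT2 -0.15) stands clear of the tdT libraries, while Lum lies within their range.

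Whether TNF-Tg changed the contrast between the types was tested with an interaction term on the 8 sums, a fit added after the data were seen, with the lone TNF-Tg pair assumed to vary like the others. By edgeR the members' adjusted p-values ran from 0.971 to 1, and 1 of 10973 genes was called, with 442 at an unadjusted p under 0.05. Dcn had a log2 difference of -0.37 ± 0.34, Prelp of -0.41 ± 0.30 and Aspn of -0.59 ± 0.63. On simulated data this test found 30 of 200 genes with a true log2 difference of 2. It thus missed most differences of that size and would miss most smaller ones, so a miss here decides nothing.

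Macrophages, which should make little of the family, served as the background. In WT macrophages the members had a median of 0.373% of their level in the stroma of the same library (range 0% to 1.01%), and in TNF-Tg macrophages 0.414% (0% to 1.90%). The few macrophages of tdT1 and tdT2 (28 and 58 cells) gave medians of 0.823% (0% to 2.86%) and 0% (0% to 1.03%). Collagens, read beside the members, gave 0.355%, 0.301%, 0.934% and 0% in WT, TNF-Tg, tdT1 and tdT2. Dcn had 1280 UMIs in WT macrophages, 58.9 CPM or 0.307% of its stromal level. Bgn had the highest share in WT, 1.01% (0.806% to 1.25%, 84 UMIs). Whether macrophages make some Bgn themselves, beside free RNA, was not tested. Aspn had the highest in TNF-Tg, 1.90% on 8 UMIs, and 0.745% on 3 UMIs once predicted doublets were removed. The VSMC-type level of Aspn in TNF-Tg, 6.89 CPM, compares with 1.43 CPM in macrophages of that library.

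Genes that make, bind or cut these proteins were read from lists for comparison, and the counts below stand beside 7.52% of all genes called as higher in VSMC-type and 6.53% as higher in LMC-type cells. The 10 collagens that the family binds had a median log2 ratio of 0.02 between the types. The 1 call was Col14a1 (-3.27, adjusted p = 1.4e-08 by edgeR), a fibril-associated collagen that was higher in LMC-type cells. Col1a1, Col1a2, Col3a1 and Col6a2 of this list are also stromal gate genes, so cells of both types were chosen partly for their level. Of 18 tested enzymes that build glycosaminoglycan chains, Chpf, a chondroitin polymerizing factor, was higher in VSMC-type cells (0.61, adjusted p = 0.0046) and Dsel, a dermatan sulfate epimerase-like gene, in LMC-type cells (-0.63, adjusted p = 0.0028), both by edgeR. Of 2 tested keratan sulfate enzymes Chst1, a keratan sulfate sulfotransferase, was higher in LMC-type cells, with 23.7 to 72.5 CPM against 0 to 1.57 CPM (log2 ratio -5.21, adjusted p = 7.7e-09 by edgeR). Of the members described above as keratan sulfate proteoglycans, Omd shared this direction and Lum went the other way. This does not cover every member that may carry the chain. Over WT, 1 of 10 collagens was at least 2-fold lower in TNF-Tg LMC-type cells and 0 of 9 in VSMC-type cells, where 3.91% and 9.5% of all genes were, with median log2 ratios of -0.42 and -0.18.

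Among 11 tested other proteoglycans 3 were higher in VSMC-type cells (Gpc3, Sdc1 and Srgn) and 2 in LMC-type cells (Vcan and Sdc2). Gpc3, a glypican, had a log2 ratio of 2.41 (adjusted p = 1.7e-05) and Vcan, which encodes versican, one of -1.57 (adjusted p = 3.6e-05), both by edgeR. Of 11 tested receptors and partners, none was higher in VSMC-type cells and 5 were higher in LMC-type cells: Tlr2 and Tlr4, which bind free biglycan, Met, a receptor of decorin, Ddr2, a collagen receptor, and Tgfb2, a ligand of the TGF-β family. Tlr2 had a log2 ratio of -1.55 (adjusted p = 7.8e-05) and Tgfb2 of -1.44 (adjusted p = 3.0e-05) by edgeR. Of 9 tested proteases and processing genes, Bmp1, which removes the propeptide of biglycan, was higher in LMC-type cells (-1.15, adjusted p = 1.9e-05 by edgeR), as was Pcolce2. Mmp3, a stromelysin, was higher in VSMC-type cells (2.13, adjusted p = 5.0e-07 by edgeR). Mmp3 was also higher in TNF-Tg than in WT, with 613 against 148 CPM in LMC-type cells and 1972 against 748 CPM in VSMC-type cells. No tested gene of 3 in the list of other family members was called.

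The genes whose level most resembled Bgn over 20 sums of type and library, of 11186 genes compared, were Spock2, Entpd2, Penk, Fmo1 and Col4a1, with Pearson's r of 0.975 to 0.981. For Aspn they were Tek, Prokr1, Flnc, Nrcam and Thbs2, with r of 0.979 to 0.986. The sums share 4 libraries and 5 cell types, so these values are a description.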

How the data were processed

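The deposited matrices hold raw UMI counts of each gene in each cell, produced by the authors with Cell Ranger against mm10. The matrix headers give version 3.1.0 for tdT1 and 6.0.1 for tdT2, WT and TNF-Tg, and the annotation is not given in the sources used here. Per the labels, tdT1 was sequenced on a NextSeq 550 and the others on a NovaSeq. Levels were compared over the 30406 genes listed in all 4 libraries, which held 99.6% to 99.9% of UMIs.

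Cells with at least 16 UMIs per 10000 over 8 stromal genes and under 4 over 5 leukocyte genes were stroma. They were LMC-type or VSMC-type where the mean log1p level of 8 LMC genes (Myoc, Pi16, Fndc1, Dpp4, Anxa3, Adamts5, Pla1a and Creb5) was more than 0.4 above or below that of 8 VSMC genes (Cxcl14, Mgp, Gdf10, Sparcl1, Cygb, C2, Srpx and Steap4). Macrophages had at least 16 over the leukocyte genes, under 16 over the stromal genes, at least 30 over 6 macrophage genes and under 100 over 5 neutrophil genes. These thresholds were set after the data were seen, and the members and gene lists were chosen with earlier results of these data known. Library pairs shared 0 to 5 cell barcodes. Scrublet predicted 4, 0, 137 and 74 doublets, which stayed in except in an alternative.

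Counts were summed per type and library (507069 to 23142225 UMIs a stromal sum) and tested with edgeR 4.0.16 (R 4.3.3; filterByExpr, TMM, quasi-likelihood F test, Benjamini-Hochberg, library as block), since the types of a library share its mice. DESeq2 1.42.0 was an alternative. In simulated counts on 10798 genes the test found 50 and 49 of 50 genes changed by a log2 fold of 2 up and down, and 26 and 13 of 50 at 1. TNF-Tg and WT were compared by CPM ratios with exact conditional binomial intervals for genes with at least 50 UMIs, and shares by exact Clopper-Pearson limits. A share of 0 allows 3 counts of the total. Promoters came from RefSeq GRCm38.p6 and gene positions from GENCODE vM21. Besides the 9 members, the text names up to 4 called genes of each list, those with the largest log2 fold changes, and for the members with the largest log2 fold change in each direction the 5 genes most like them by Pearson's r of log2(CPM + 1). Sdc2, Ddr2 and Ecm2 were named after their values were seen.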

Additional observations from a re-analysis of the deposited data

Results flagged for a closer look

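Dcn was higher in VSMC-type than in LMC-type stroma in tdT1, tdT2 and WT, with log2 ratios of 0.28 to 0.67, but not in TNF-Tg, with -0.031. This drew attention because the directions differ. The interaction term gave a log2 difference of -0.37 ± 0.34. On simulated data that test missed most true differences of 2, so it cannot decide whether TNF-Tg differs from the others.

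The area under the curve for Aspn was 0.357 in TNF-Tg and 0.224 to 0.239 in the other libraries. The gap was 0.888 of the whole range, above Dixon's 95% critical value for 4 samples. Such a gap arises by chance in about 1 of 20 sets, and 16 sets were examined.

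Prelp had a log2 ratio of TNF-Tg over WT of 0.20 in LMC-type cells and of -0.33 in VSMC-type cells, and counting intervals put them on opposite sides of 0. With 1 library a genotype this difference was not tested. The interaction term sets the type ratio in TNF-Tg against that in the other 3 libraries and assumes the lone TNF-Tg pair to vary like them. It gave a log2 difference of -0.41 ± 0.30, and the test missed most simulated differences of 2. As a mean over cells the LMC-type ratio was 0.01, and with TMM scaling the VSMC-type ratio was -0.17.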

How the results depend on the processing

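Without the replicate block, that is without pairing the types by library, 1 member (Bgn) and 337 genes were called in place of 6 and 1542, and the paired fit changed no direction. Leaving out 1 library in turn gave 6 to 6 members and 833 to 1518 genes called, with 833 without WT replicate 1. Gating by the 3 leading genes of each type made 5 members at least 2-fold lower in TNF-Tg VSMC-type cells in place of 3. The share of all genes with that gate is not given, and the 9.5% above is for the main gate, so the 2 counts are not comparable against a background. Thinning to 1500 UMIs lowered the mean area of Bgn to 0.751. At 3000 UMIs that mean was 0.884 with a gate margin of 0.8 in place of 0.4, and 0.831 with the 3 leading genes. Without thinning the mean area of Dcn turned to 0.495. DESeq2 also called Dcn (adjusted p = 0.0055). With Leiden clusters as the types Aspn had a log2 ratio of -2.15. In the other 13 alternatives to the unblocked fit the 6 called members stayed past the threshold, and the TNF-Tg over WT directions held in 7 alternatives. In tdT2 VSMC-type cells Aspn and Fmod had 3 UMIs each and Omd 8, which limits their values there. The cause of these shifts was not tested.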
